A study of Mus musculus with 5 samples.

Results

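The ubiquitin-conjugating (E2) enzymes were taken as all genes whose symbol begins with Ube2, each read through the probe set with the highest mean among those annotated to that symbol alone. There were 35 such genes among 19938 genes measured. They were divided into Ube2c, Ube2s and Ube2t, called the mitotic members here, and the other 32. Ube2cbp matches the symbol pattern but encodes a binding protein of the Ube2c enzyme with ligase activity, not a conjugating enzyme. Ube2m was not analysed here.

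The samples were mammary glands of 5 female mice of strain FvB/N, aged 8 weeks, each hybridised to its own Affymetrix whole-transcript array. The labels give 3 mice as rtTA/CCND1, carrying a cyclin D1 transgene together with rtTA, and 2 control mice as rtTA alone, each array being a separate animal. rtTA is a doxycycline-dependent transactivator, here driven by the MMTV promoter, which is active in mammary epithelium, and the study asks what acute cyclin D1 expression does to the gland. Doxycycline was given for 7 days, a statement the labels make of a "KE" mutant of CCND1, and nothing says whether control mice received it. Values are log2 expression after RMA, so a difference of 1 is a doubling of signal, and all differences are cyclin D1 minus control.

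Ubiquitin is passed from an E1 activating enzyme to the catalytic cysteine of an E2, and from there, with the help of an E3 ligase, to a substrate. The E2 largely sets which lysine of ubiquitin is joined to the next, and so whether a substrate goes to the proteasome or receives a signalling mark. In dividing cells the anaphase-promoting complex (APC/C), the ligase that ends mitosis, uses Ube2c to start chains on cyclin B and securin and Ube2s to lengthen them. Ube2t serves the Fanconi anaemia ligase in the repair of DNA crosslinks. The remaining E2s work in proteasomal turnover, endoplasmic reticulum quality control, DNA damage tolerance and signalling in dividing and resting cells.

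Promoter sequences are shown for the 3 mitotic members and for Ube2k and Ube2g1, the members with the largest difference and the smallest p, because promoters of mitotic genes are known to carry CHR and CCAAT elements. They are from RefSeq (GRCm38.p6), 250 bases before to 50 after the annotated start, read 5′ to 3′ in the direction of the gene. Capitals mark matches on either strand to TTTGAA (the CHR core), CCAAT (the NF-Y box) and GCGGGAA (an E2F-type core). The Ube2c window is chr2:164769679-164769978 (+ strand), that of Ube2s chr7:4812291-4812590 (- strand), that of Ube2t chr1:134962315-134962614 (+ strand), that of Ube2k chr5:65536995-65537294 (+ strand) and that of Ube2g1 chr11:72607011-72607310 (+ strand).
Ube2c: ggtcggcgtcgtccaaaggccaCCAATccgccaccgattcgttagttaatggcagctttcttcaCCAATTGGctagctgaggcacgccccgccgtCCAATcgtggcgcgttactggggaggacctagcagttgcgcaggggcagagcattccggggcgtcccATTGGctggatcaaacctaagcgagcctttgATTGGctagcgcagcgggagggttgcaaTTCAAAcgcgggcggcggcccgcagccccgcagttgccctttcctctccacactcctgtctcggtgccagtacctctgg
Ube2s: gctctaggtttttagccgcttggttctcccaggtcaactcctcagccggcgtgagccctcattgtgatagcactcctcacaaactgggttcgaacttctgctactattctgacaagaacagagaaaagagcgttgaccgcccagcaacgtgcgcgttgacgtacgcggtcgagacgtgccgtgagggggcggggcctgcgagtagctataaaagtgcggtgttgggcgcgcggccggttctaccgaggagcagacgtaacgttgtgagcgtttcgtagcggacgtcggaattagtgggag
Ube2t: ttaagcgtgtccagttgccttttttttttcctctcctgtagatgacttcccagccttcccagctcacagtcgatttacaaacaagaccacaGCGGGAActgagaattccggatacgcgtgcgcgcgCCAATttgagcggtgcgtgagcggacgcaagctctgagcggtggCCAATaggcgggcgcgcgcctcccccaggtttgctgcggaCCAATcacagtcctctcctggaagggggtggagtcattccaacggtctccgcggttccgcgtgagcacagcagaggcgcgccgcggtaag
Ube2k: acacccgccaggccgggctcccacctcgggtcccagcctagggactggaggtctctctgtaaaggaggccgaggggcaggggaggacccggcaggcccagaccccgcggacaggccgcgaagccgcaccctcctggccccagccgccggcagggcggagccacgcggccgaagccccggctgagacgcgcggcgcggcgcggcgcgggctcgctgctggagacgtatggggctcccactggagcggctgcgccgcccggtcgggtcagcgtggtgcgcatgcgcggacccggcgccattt
Ube2g1: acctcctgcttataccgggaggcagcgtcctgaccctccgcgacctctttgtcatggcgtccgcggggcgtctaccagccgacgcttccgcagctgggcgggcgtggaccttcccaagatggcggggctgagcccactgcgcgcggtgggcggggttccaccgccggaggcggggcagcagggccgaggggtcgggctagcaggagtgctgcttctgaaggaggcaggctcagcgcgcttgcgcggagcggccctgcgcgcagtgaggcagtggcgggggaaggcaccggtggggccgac

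The Ube2c window held 6 CCAAT matches, 2 of them overlapping on opposite strands, and 1 CHR core whose first letter lay 29 bases before the start. The Ube2t window held 3 CCAAT matches and 1 E2F-type core. The windows of Ube2s, Ube2k and Ube2g1 held none of the 3 motifs. Of all 32851 promoter windows in the table, 17.9% held a CHR core, 37.4% a CCAAT match and 4.6% an E2F-type core. Of the 38 windows of 29 members, 4, 9 and 7 held them. Ube2d2a, Ube2e3, Ube2g2, Ube2o, Ube2v2 and Ube2w were not in the table. A match describes these letters and is not evidence of binding.

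The mouse Ccnd1 probe set had 4.63, 4.92 and 4.005 in cyclin D1 glands, against 4.04 and 3.49 in controls, with overlapping groups (difference 0.75, limma adjusted p = 0.218; -0.14 renormalized). No source used here says whether it reads the transgene, so the genotype labels were not checked by it. The arrays differed in spread. The SD across genes was 1.20 to 1.38 on the cyclin D1 arrays and 0.73 and 0.93 on the controls, so genes with high values tended to be higher and genes with low values lower in the cyclin D1 glands. The 3 cyclin D1 arrays correlated with each other across genes at Pearson r of 0.955 to 0.962, the 2 controls correlated at 0.779, and control 1 stood furthest from the rest. Differences are therefore also given after the 5 arrays were quantile-normalized again ("renormalized"). The mean of 1027 olfactory receptor genes, 1.97 to 2.24 on the cyclin D1 arrays and 2.38 and 2.52 on the controls, served as a rough floor, since no detection call was used here. Of the 35 members, 11 had at least 1 value at or below it. The epithelial markers Epcam and Cdh1 rose (differences of 2.49 and 1.37), as 2 of 6 luminal markers. The mean of the 6 was 4.65 to 5.08 on the cyclin D1 arrays, against 3.59 and 3.73 on the controls. Of 5 basal markers 1 rose and of 3 milk-making markers 2, and 0 of 5 adipocyte, 4 fibroblast, 3 endothelial and 4 leukocyte markers passed the test. Over all genes 5.38% were called higher, and in the top decile of mean value over the 5 arrays 36%. That decile held 3 luminal, 1 basal, 3 milk-making, 2 adipocyte, 1 fibroblast, 0 endothelial and 1 leukocyte markers. Renormalized, 0 luminal markers passed and their median difference was 0.43, against 1.14 as deposited. The adipocyte median was then -1.01, with all 5 markers negative, against -0.064 as deposited, and the fibroblast median -0.66, against 0.14. The part of cell makeup, or of the arrays' unequal spread, in the results that follow was not tested. In whole glands, more cells of a type and more RNA per cell cannot be told apart.

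Of the 35 members, 10 rose in cyclin D1 glands and 0 fell (limma, Benjamini-Hochberg over all genes, threshold 0.05), and 19 had an unadjusted p under 0.05, against 26.3% of all genes. All 10 belonged to the other 32 members; of the 3 mitotic members 0 passed by limma and 0 had an unadjusted p under 0.05. Over all genes 5.38% were called higher and 0.687% lower, 6.06% in all. The median difference was 0.77 over the 35 members, 0.83 over the 32 other members and -0.11 over the 3 mitotic members, against -0.053 over all genes. In 21 members all 3 cyclin D1 values lay above both controls and in 3 all lay below, against 22.4% and 22.6% of all genes. Differences were positive in 25 members, against 44.3% of all genes. After renormalization 0 of the 35 passed, against 0.361% of all genes called, while 15 members had an unadjusted p under 0.05, against 18.7% of all genes. The member median was then 0.36, and 14 members had all cyclin D1 values above both controls, against 20.1% of all genes, and 5 all below, against 19.5%. The counts also rest on single arrays: 0 members passed without cyclin D1 replicate 1 or without cyclin D1 replicate 2. In these settings no gene at all passed, and 16 and 16 members had an unadjusted p under 0.05, against 17.9% and 17.5% of all genes. Without cyclin D1 replicate 3, 4 members passed, where 299 of the 19938 genes were called higher and 2 lower. Leaving out a control leaves a single control array, so only sizes are read for those settings. The member median was 0.39 without control 1 and 0.97 without control 2.

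**Figure D1:**
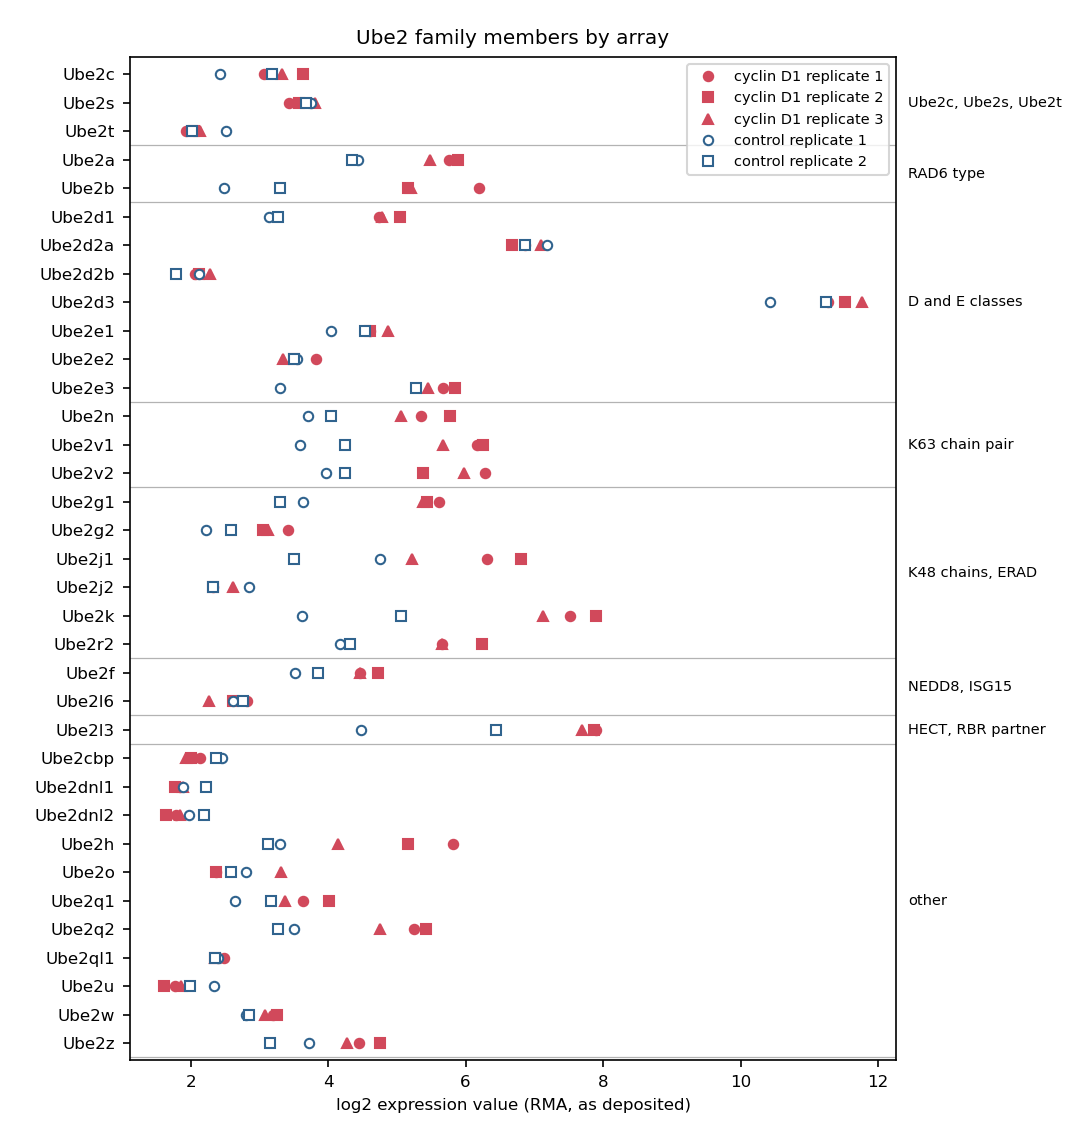
Log2 expression value (x axis) of each of the 35 members (rows, grouped by role) on each array; filled red symbols are the 3 cyclin D1 arrays and open blue symbols the 2 controls. The 3 mitotic members at the top show overlapping groups. In 21 of the 32 other members every cyclin D1 value lies above both controls, against 22.4% of all genes. In the top decile of mean value this holds for 1640 of 1994 genes. That decile holds 15 of the other members and 0 mitotic members.

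Ube2c had values of 3.07, 3.63 and 3.33 in cyclin D1 glands, against 2.43 and 3.19 in controls. Control 2 lay above cyclin D1 replicate 1, so the groups overlapped, and control 1 lay below the olfactory receptor mean. The difference of 0.53 (SE 0.29, 95% interval -0.19 to 1.26) did not pass (limma adjusted p = 0.300). Its size depended on the controls: it was 0.16 without control 1 and 0.91 without control 2, and 0.53 after renormalization but 0.092 with renormalization and without control 1. Among the genes in its decile of mean value over all 5 arrays it stood at percentile 88.7.

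Ube2s had values of 3.43, 3.57 and 3.81 in cyclin D1 glands, against 3.75 and 3.68 in controls. Both controls lay inside the cyclin D1 range. The difference was -0.11 (SE 0.16, 95% interval -0.52 to 0.30, limma adjusted p = 0.693), at percentile 25.2 of its decile. Renormalized it was -0.66, with all cyclin D1 values below both controls, and did not pass (adjusted p = 0.222). A second Ube2s probe set differed by 0.0038.

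Ube2t had values of 1.93, 2.04 and 2.14 in cyclin D1 glands, against 2.52 and 2.01 in controls. Both controls and 2 of the 3 cyclin D1 values lay at or below the olfactory receptor mean of their array, so the level of this gene could not be read on most arrays. Its difference was -0.23 (SE 0.19, 95% interval -0.71 to 0.26, limma adjusted p = 0.485), and 0.027 without control 1.

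General proliferation markers of the same arrays are given beside these 3 genes; the difference between the lists was not tested. Of 4 such markers measured, the spindle motor gene Kif11, the topoisomerase gene Top2a and the checkpoint kinase gene Bub1 rose and Mki67 had a difference of 2.41 (limma adjusted p = 0.0664). Over all genes 5.38% were called higher, in the top decile of mean value 36% and in the ninth 13.4%. Top2a and Mki67 lay in the top decile, Kif11 and Bub1 in the ninth. Top2a had values of 5.97, 6.84 and 6.65 in cyclin D1 glands, against 2.74 and 3.74 in controls, a difference of 3.25 (95% interval 2.25 to 4.25, limma adjusted p = 0.0213). Both Kif11 controls lay below the olfactory receptor mean, and measured against that mean the difference was at least 2.54. Renormalized, the 4 markers differed by 1.33 to 2.57, with groups apart in all 4. Of these only Kif11 passed on that scale (limma adjusted p = 0.0435), against 0.361% of all genes. Other genes of cell division were less uniform. Of 11 measured APC/C substrates, Bub1 among them, 1 rose and the median difference was 0.10. Ccna2 differed by 2.83 (limma adjusted p = 0.0574), but Plk1, Aurka and Aurkb by 0.18, 0.091 and -0.52. The mean of the mitotic members was 2.81, 3.08 and 3.10 on the cyclin D1 arrays, against 2.90 and 2.96 on the controls. The mean of the other 32 was 4.67, 4.66 and 4.48, against 3.55 and 3.75. The first pair of groups overlapped and the second did not. The mean over all genes did not overlap either, at 3.10, 3.12 and 3.13 against 2.93 and 3.01. Over genes in the top decile of mean value it was 6.15, 6.27 and 5.90, against 4.15 and 4.90. After renormalization the means of the mitotic members were 2.84, 3.04 and 3.04 against 3.06 and 3.00. Those of the others were 4.36, 4.28 and 4.31 against 3.94 and 3.92.

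**Figure D2:**
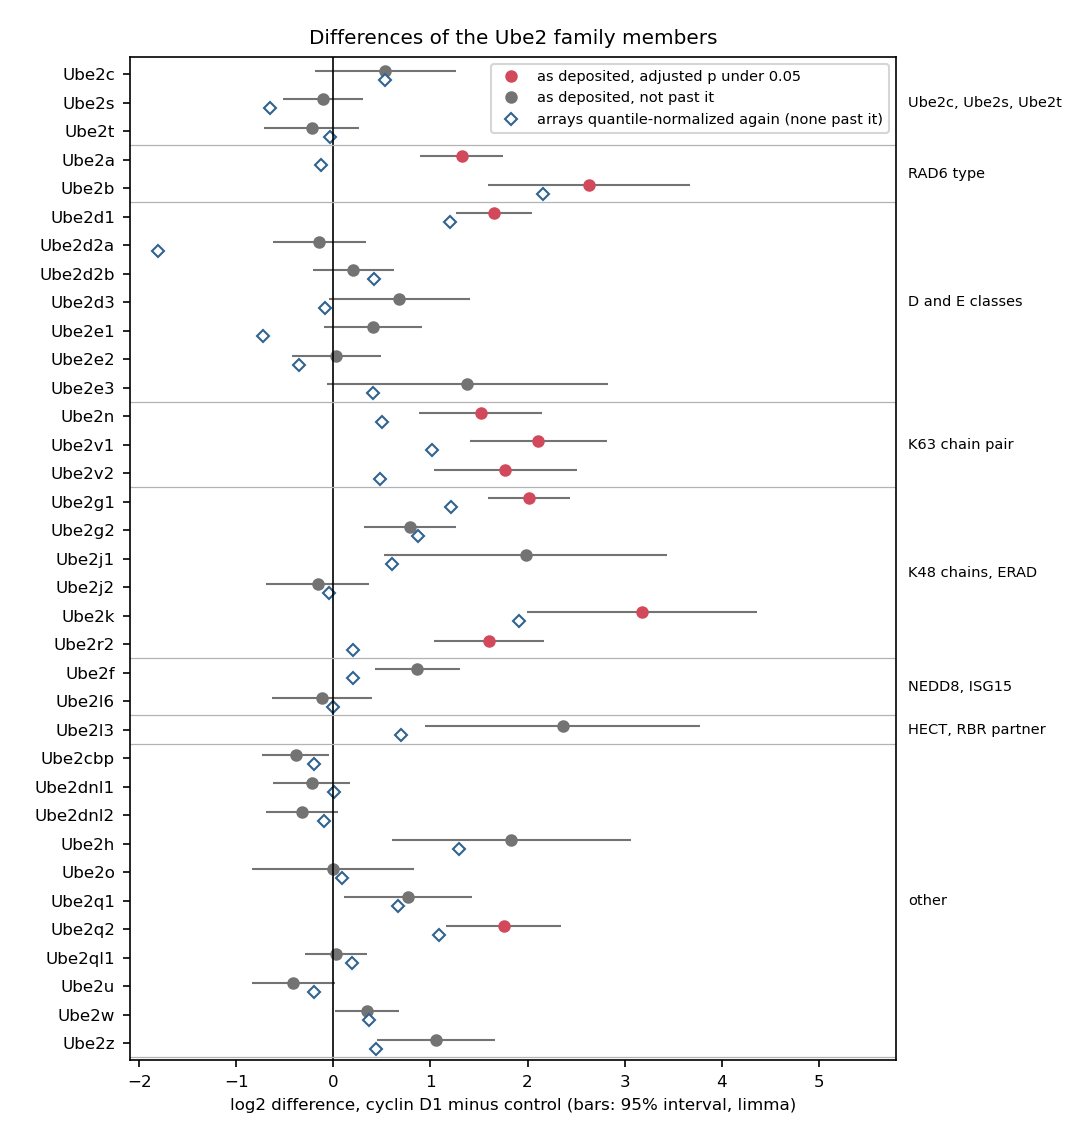
Log2 difference, cyclin D1 minus control (x axis), for each of the 35 members; circles with 95% intervals are the deposited values, red where the adjusted p was under 0.05, and open diamonds are the differences after renormalization. The 10 red circles lie among the other 32 members and none among Ube2c, Ube2s and Ube2t; no diamond passed the test.

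Enzymes that build degradative chains or serve the endoplasmic reticulum were the role group with the largest single difference. Ube2k, which joins ubiquitin through lysine 48, had values of 7.52, 7.90 and 7.12 in cyclin D1 glands, against 3.62 and 5.05 in controls. Every cyclin D1 value lay more than 2 units above the higher control. The difference was 3.18 (SE 0.47, limma adjusted p = 0.0297), and 2.46 without control 1.

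Ube2g1, which extends such chains on substrates of cullin ligases, had values of 5.61, 5.44 and 5.38 in cyclin D1 glands, against 3.63 and 3.29 in controls. The groups were far apart and tight, and the difference of 2.01 (SE 0.17, adjusted p = 0.0165) had the smallest p of the family. Ube2r2, a paralogue of Cdc34 that works with SCF ligases, had 5.66, 6.23 and 5.65, against 4.17 and 4.31 in controls, a difference of 1.60 (SE 0.23, adjusted p = 0.0270). Renormalized, Ube2k differed by 1.91 and Ube2g1 by 1.21, with groups still apart, but Ube2r2 by only 0.20, with overlapping groups. None of these 3 passed on that scale.

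Of the 3 enzymes that act in endoplasmic reticulum-associated degradation, none passed. Ube2j1, anchored in the ER membrane, had 6.31, 6.80 and 5.22 in cyclin D1 glands, against 4.75 and 3.51 in controls, a difference of 1.98 (limma adjusted p = 0.109) with a wide spread in both groups. Ube2g2, the partner of the ER ligase gp78, differed by 0.79 (adjusted p = 0.0748), with 1 control below the floor, and 0.87 after renormalization, and as deposited it stood at percentile 98.6 of its decile. Ube2j2 differed by -0.16 and held the same value, 2.32, on 3 of the 5 arrays.

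The enzymes of lysine-63 chains rose as deposited. Ube2n (Ubc13) builds these signalling chains with Ube2v1 or Ube2v2, E2-like partners that lack the catalytic cysteine, and all 3 passed. Ube2v1 had values of 6.17, 6.25 and 5.67 in cyclin D1 glands, against 3.59 and 4.25 in controls, a difference of 2.11 (SE 0.28, limma adjusted p = 0.0246). Ube2v2 had 6.27, 5.38 and 5.98, against 3.96 and 4.25 in controls, a difference of 1.77 (SE 0.29, adjusted p = 0.0355). Ube2n had 5.34, 5.77 and 5.05, against 3.70 and 4.04 in controls, a difference of 1.52 (SE 0.25, adjusted p = 0.0358). In none of the 3 did the groups overlap. After renormalization they differed by 1.01, 0.48 and 0.50, none passed, and the Ube2v2 groups overlapped. The Ube2v1 value depends on the probe set, which is described with the other multi-probe-set members.

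Both mouse RAD6 enzymes, which ubiquitinate histone H2B and the clamp PCNA, rose. Ube2b had values of 6.19, 5.16 and 5.21 in cyclin D1 glands, against 2.48 and 3.30 in controls. The difference was 2.63 (SE 0.41, limma adjusted p = 0.0332), with control 1 at the floor, so its size is inexact. Ube2a had 5.76, 5.89 and 5.48, against 4.43 and 4.34 in controls, a difference of 1.32 (SE 0.17, adjusted p = 0.0229). These near-identical enzymes parted after renormalization, where Ube2b still differed by 2.16, at percentile 95.9 of its decile, and Ube2a had the opposite sign, -0.12, with overlapping groups.

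The D and E classes, which serve many RING ligases, moved unevenly: of 7 measured, only Ube2d1 rose. It had values of 4.73, 5.04 and 4.79 in cyclin D1 glands, against 3.13 and 3.27 in controls, a difference of 1.65 (SE 0.16, limma adjusted p = 0.0165) and of 1.20 after renormalization (adjusted p = 0.0510), the smallest adjusted p of the family on that scale. Ube2d3 had 11.28, 11.52 and 11.76, against 10.43 and 11.24 in controls, a difference of 0.68 (adjusted p = 0.211) and of -0.087 renormalized. Ube2d2a had 6.87, 6.67 and 7.09, against 7.18 and 6.86 in controls. Its difference of -0.15 (adjusted p = 0.647) lay at percentile 3.26 of its decile, where nearly all genes had positive differences, and became -1.81 on renormalization (adjusted p = 0.0986).

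Ube2e1 differed by 0.41 as deposited and by -0.72 renormalized, with groups apart on both scales but in opposite directions. Ube2e2 differed by 0.030. Ube2e3 had 5.68, 5.85 and 5.46 in cyclin D1 glands, against 3.29 and 5.28 in controls, so that its difference of 1.38 (limma adjusted p = 0.206) rests mainly on control 1. It was 0.39 without control 1 and 0.41 renormalized. With both changes it was -0.89. Ube2d2b lay at or below the floor in both controls, with overlapping groups.

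Among the E2s of ubiquitin-like modifiers, Ube2f, which passes NEDD8 to cullin 5, had values of 4.46, 4.72 and 4.46 in cyclin D1 glands, against 3.52 and 3.85 in controls. The difference of 0.87 narrowly missed the threshold (limma adjusted p = 0.0517), and it was 0.20 renormalized. The interferon-induced Ube2l6, which carries ISG15, differed by -0.12. Ube2l3, which works with HECT and RBR ligases such as parkin, had 7.90, 7.86 and 7.69, against 4.47 and 6.43 in controls, a difference of 2.36 that did not pass (adjusted p = 0.0732). Its controls lay far apart and its cyclin D1 values close together. The difference was 1.38 without control 1 and 3.35 without control 2. Renormalized it was 0.69, with overlapping groups, and 0.065 when control 1 was also left out.

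Of the remaining 11 members Ube2q2 rose. It had values of 5.24, 5.42 and 4.76 in cyclin D1 glands, against 3.50 and 3.27 in controls, a difference of 1.76 (SE 0.23, limma adjusted p = 0.0249), and of 1.09 renormalized, which did not pass. Ube2h, the E2 of the CTLH ligase, had a difference of 1.83 (adjusted p = 0.0923), with cyclin D1 values of 5.82, 5.16 and 4.14. Ube2z, which takes ubiquitin from Uba6 only, differed by 1.06 (adjusted p = 0.0678), Ube2q1 by 0.77, Ube2w, which modifies N-termini, by 0.35 and Ube2o, a combined E2 and E3, by -0.0041. Ube2ql1 lay at or below the floor in both controls, with overlapping groups. Ube2cbp had 2.14, 1.999 and 1.92, against 2.45 and 2.36 in controls, a difference of -0.39 (SE 0.14, adjusted p = 0.152). Both controls and 1 cyclin D1 value lay at or below the floor, so this size is inexact. Ube2u had 1.78, 1.62 and 1.86, against 2.34 and 1.99 in controls, and Ube2dnl2 had 1.78, 1.63 and 1.84, against 1.97 and 2.19. In both, all cyclin D1 values were below both controls, but Ube2u, Ube2dnl1 and Ube2dnl2 lay at or below the floor on all 5 arrays, so no fold is given.

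The calls of the family are set beside mean value here. Deciles rank the mean over all 5 arrays, 3 of them cyclin D1, so a gene's own difference moves its decile. Ube2b, for example, reached the top decile with a control mean of 2.89 and a cyclin D1 mean of 5.52. Calls by decile and percentiles within a decile are therefore partly tied to the difference itself. Of the 10 members that rose, 9 lay in the top decile of mean value and 1 in the ninth. In the top decile 9 of 15 members rose, against 36% of its 1994 genes, and the member median of 1.76 stood beside 1.59 for all its genes. In the ninth decile 1 of 4 rose, against 13.4%. Below it 0 of 16 members rose. Renormalized, the medians in the top decile were 0.50 for the members and 0.36 for all genes. Ube2s lay in the eighth decile, where 3.06% of genes were called higher, Ube2c in the seventh, with 0.953%, and Ube2t in the second, with 0%.

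**Figure D3:**
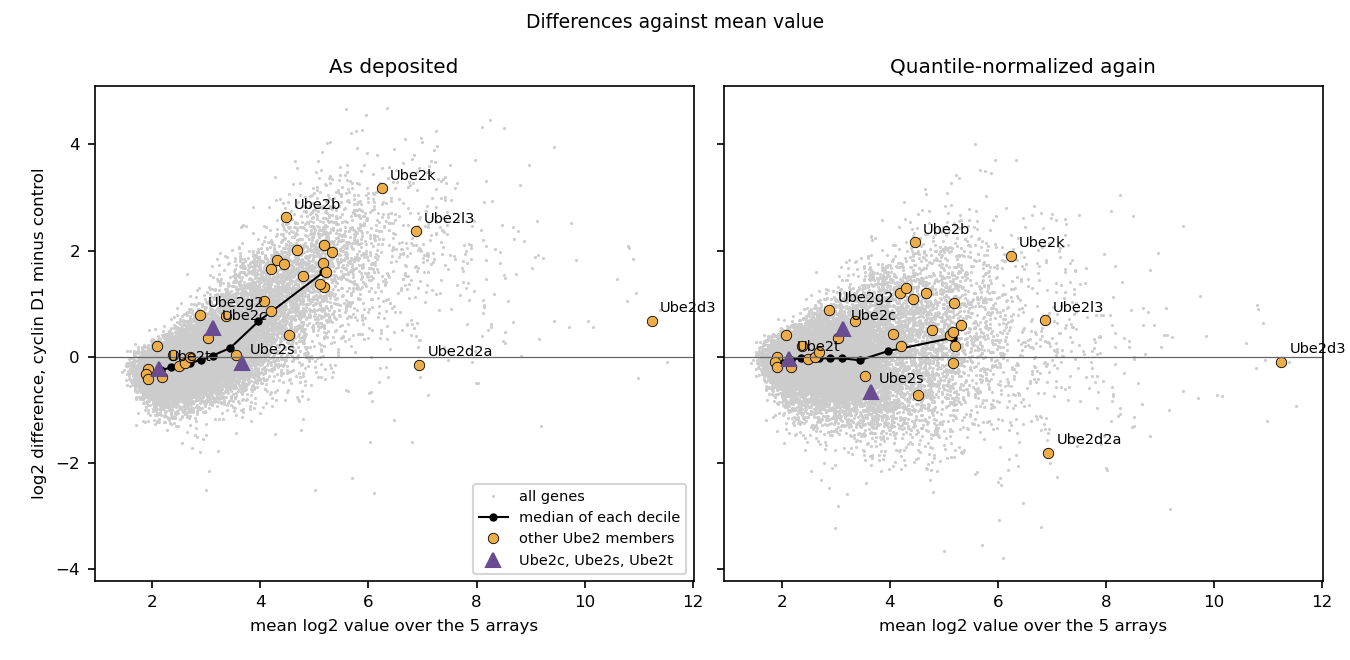
Log2 difference, cyclin D1 minus control (y axis), against mean log2 value over the 5 arrays (x axis), as deposited on the left and renormalized on the right; grey points are all 19938 genes, the black line joins decile medians, circles are the other Ube2 members and triangles the mitotic members. The decile median climbs to 1.59 on the left and 0.36 on the right, and Ube2d2a and Ube2s lie below the line in both.

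Of the 35 members 9 had more than 1 probe set of their own, and in these the choice of probe set mattered. On this array probe-set numbers follow gene order. For 96.8% of single-symbol probe sets of genes with a known chromosome, the commonest chromosome among the 20 nearest probe sets was the gene's own. The share was 99.8% for symbols with 1 probe set but 77.2% for symbols with more than 1. The commonest chromosome was the gene's own for all 26 members with 1 probe set. In all 9 members with several, the probe set with the highest mean had neighbours on another chromosome, for example chromosome 5 for Ube2n, a gene of chromosome 10, and X for Ube2d3, a gene of chromosome 3. The source of the signal in such probe sets was not tested, and members read through them are uncertain to that extent.

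Reading these 9 through the probe set whose neighbours lie on the gene's own chromosome, chosen after the probe sets were compared, left 9 members called higher and 0 lower, against 10 and 0. Ube2n, Ube2v2 and Ube2q2 kept their calls, with differences of 1.64, 2.15 and 1.88. Ube2v1 did not: that probe set had 1.83, 1.42 and 1.96 in cyclin D1 glands, against 3.23 and 2.34 in controls, a difference of -1.05 (limma adjusted p = 0.116), with all cyclin D1 values at or below the floor. Ube2l3 differed by 0.67 in place of 2.36, with overlapping groups. Ube2d2a turned to 1.20 (adjusted p = 0.166), with 6.36, 6.31 and 6.27 in cyclin D1 glands, against 4.35 and 5.88 in controls. Ube2d3 differed by 1.25 (adjusted p = 0.0680) and Ube2h by 1.89.

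**Figure D4:**
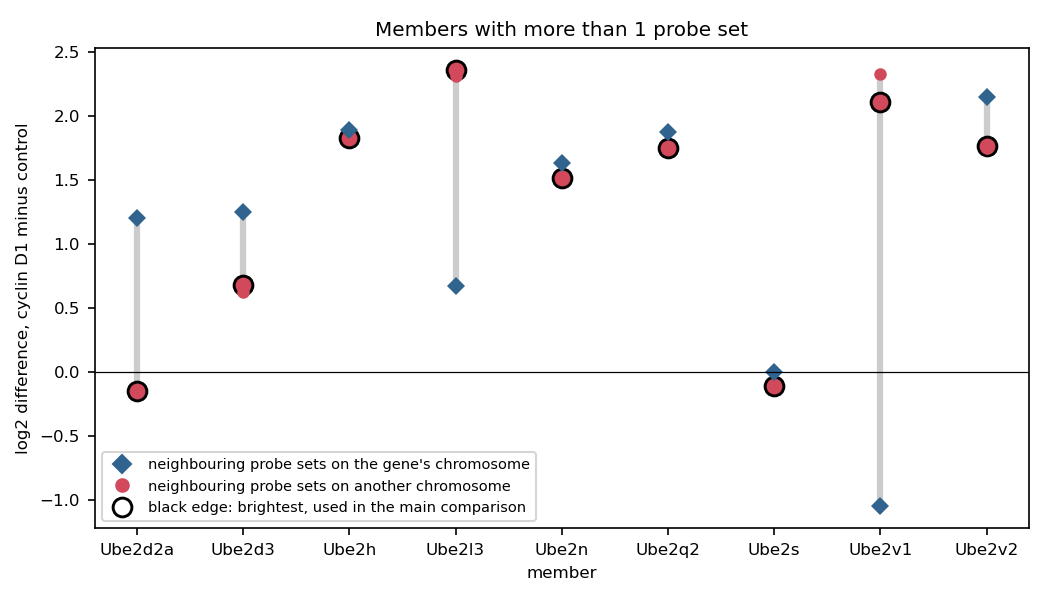
Log2 difference, cyclin D1 minus control (y axis), of every probe set of the 9 members with more than 1; blue diamonds have neighbouring probe sets on the gene's own chromosome, red circles on another, and a black edge marks the probe set with the highest mean. The probe sets nearly coincide for Ube2h, Ube2n, Ube2q2 and Ube2s, though those of Ube2s, at -0.11 and 0.0038, differ in sign. Those of Ube2v1 and Ube2d2a lie further apart, on opposite sides of 0.

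The other steps of the pathway were described for comparison. The counts in this and the following lists stand beside 5.38% of all genes called higher and 0.687% lower. In the top decile of mean value 36% of genes were called higher, and in the ninth 13.4%. Of 6 E1 genes measured 1 rose and 0 fell: Nae1, a subunit of the NEDD8-activating enzyme, by 2.05 (limma adjusted p = 0.0377), with 1 control at the floor. Its partner Uba3 differed by 2.26 (adjusted p = 0.0522) and Uba6 by 1.57. Of 4 measured modifier genes Sumo2 rose by 2.95 and Nedd8 by 1.77. Of 7 E2-like genes without a Ube2 symbol, Atg3 and Birc6 rose. Atg3, an E2 of autophagy, differed by 1.50 and Birc6, a giant E2 and E3 hybrid, by 2.53. Cdc34 differed by 0.22 and Atg10 by 0.64, and neither passed. Sumo2, Nedd8, Atg3 and Birc6 lay in the top decile of mean value and Nae1 in the ninth. Renormalized, Sumo2 differed by 1.19, Nedd8 by 0.62, Birc6 by 1.75 and Nae1 by 1.74. Atg3 then had the opposite sign at -0.095. None of these genes passed on that scale.

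Of 13 cullin-RING and F-box genes, 4 rose and 0 fell, all of them cullins: Cul4b by 1.59, Cul1 by 1.41, Cul3 by 2.99 and Cul5 by 1.61. All 4 lay in the top decile of mean value, where 36% of genes were called higher. Cul4b and Cul1 had the opposite sign after renormalization, at -0.0060 and -0.23. The median of the list was 0.40. Fbxo4 and Fbxo31, named in the literature as F-box receptors for cyclin D1, differed by 0.23 and -0.20 and did not pass.

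The ligase and substrates of the mitotic E2s were counted in the same way. Of 17 genes of the APC/C, its coactivators and its inhibitor, 6 rose and 0 fell, with a median of 0.79. They were the core subunit genes Cdc27 (2.05), Anapc4 (1.29), Anapc1 (1.38), Anapc5 (1.81) and Anapc15 (1.105), and Fbxo5 (2.16), which encodes the inhibitor Emi1. Cdc27 lay in the top decile of mean value, Anapc15 in the eighth and the others in the ninth. In these deciles 36%, 3.06% and 13.4% of genes were called higher. The coactivator gene Fzr1 differed by -0.21; the other, Cdc20, lay at or below the floor in both controls, its groups overlapped and it did not pass (adjusted p = 0.353). Of 11 measured APC/C substrates 1 rose, the checkpoint kinase Bub1 (1.96, limma adjusted p = 0.0394), and the median was 0.10; cyclin A2, Ccna2, differed by 2.83 (adjusted p = 0.0574) while Plk1, Aurka and Aurkb differed by 0.18, 0.091 and -0.52. Of 11 genes around Ube2t in the Fanconi anaemia pathway 0 passed by limma, and the median was 0.11. In this list 1 gene had an unadjusted p under 0.05, against 26.3% of all genes. The deubiquitinase gene Usp1 differed by 1.69 (limma adjusted p = 0.0686). Renormalized, the medians of the APC/C, substrate and Fanconi lists were 0.59, 0.23 and 0.26, and 0 genes of these lists passed, against 0.361% of all genes.

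**Figure D5:**
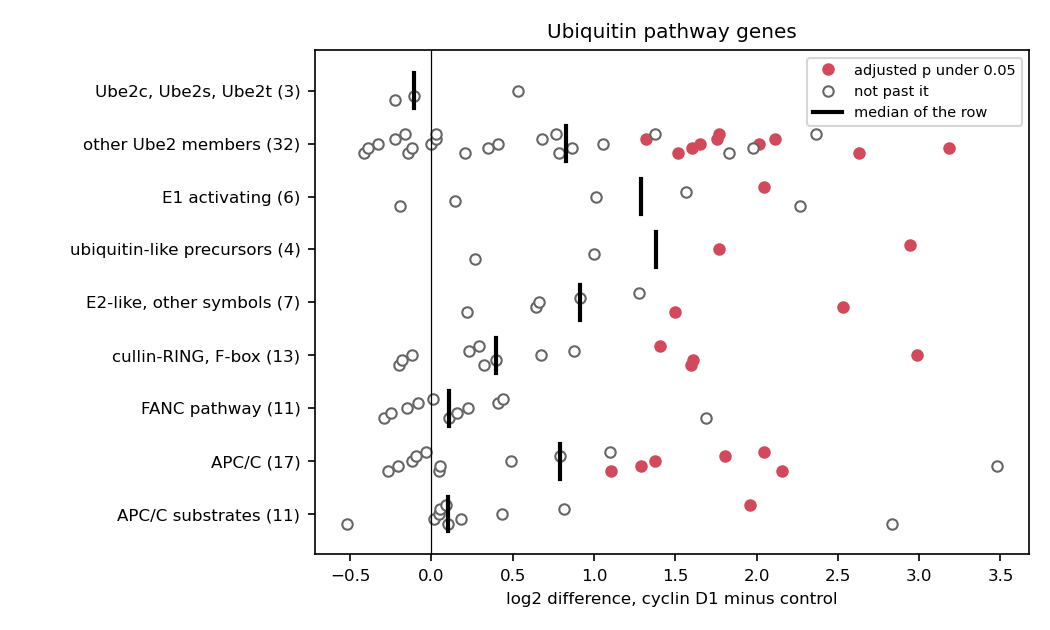
Log2 difference, cyclin D1 minus control (x axis), of each gene in the 2 parts of the Ube2 family and in 7 pathway lists (rows, with the number measured); red circles passed the test, open circles did not, and black bars are row medians. The medians run from -0.11 for Ube2c, Ube2s and Ube2t to 1.38 for the modifier precursors.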

How the data were processed

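The authors deposited log2 expression values; the submitters' processing notes name RMA and version 1.1 of Expression Console; the log2 scale was read from their range, 0.830 to 12.9. Of 35556 probe sets, 21789 carried 1 gene symbol in the platform annotation, 1621 several and 12146 none. For each symbol the single-symbol probe set with the highest mean was used, giving 19938 genes. Differences were tested by moderated linear models (limma 3.58.1, R 4.3.3, two-sided, 3 residual degrees of freedom, Benjamini-Hochberg over all genes, threshold 0.05), and the code was tested on simulated data. An exact permutation test of 3 against 2 arrays cannot go below p = 0.1. Only 5 arrays limit the precision, and no batch is given in the sources used here. The members and gene lists were chosen with earlier results of these data known. Named in full were the mitotic members, members that passed, and the 3 with the most negative difference; others are given by role group. Alternatives were a second quantile normalization, median centring, a filter on dim genes, other probe-set rules, other limma priors, array weights, a replicate block and leaving out each array. Replicate numbers were not taken as pairs, since only 2 pairs exist.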

Additional observations from a re-analysis of the deposited data

How the results depend on the processing

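With 3 and 2 arrays, and control 1 apart from the rest, the counts depend on the processing. Members called higher numbered 10 as reported and 0 lower; genes numbered 1072 higher and 137 lower. After a second quantile normalization 0 members were higher, with 51 genes higher and 21 lower, and the medians were 0.36 over all members and 0.39 over the other 32. With genes of mean 3 or more, 1647 genes were higher and 39 lower. That filter kept 24 members and dropped Ube2t among others. Over the members kept, the medians were 1.45 for all, 1.56 for the others and 0.21, of opposite sign, for the mitotic members. The Fanconi list's median became -0.011 over its genes kept. The filter uses the mean over all arrays, cyclin D1 arrays included, so which members are kept is partly tied to the difference itself. An intensity trend in the prior left 6 members and 622 genes higher. Array weights left 2 members (Ube2d1 and Ube2g1) and 263 genes higher and 4 lower. With a replicate block 9 members and 1137 genes were higher and 10 genes lower; Ube2b (limma adjusted p = 0.0599) and Ube2v2 (0.0798) lost their calls and Ube2h gained one; the correlations of same-numbered deviations were -0.026 and 0.13. Leaving out each array in turn gave 0 to 7 members higher, 0 to 1365 genes higher and 0 to 1063 lower, and medians of 0.39 to 0.97 over all members, 0.56 to 1.03 over the others and -0.21 to 0.027 over the mitotic members. With quantile normalization and without control 1, 5 members were higher and 1, Ube2e3 (-0.89), lower, 555 genes higher and 894 lower, with medians of 0.26, 0.092 (mitotic) and 0.35 (others). The upper ends of the leave-out counts came from the setting without control 2. Counts from any setting without a control rest on a single control array, with no spread among controls. They are therefore not read as calls, and only the sizes are used. With own-chromosome probe sets, chosen after seeing the data, the mitotic median and Ube2s were 0.0038 and Ube2v1 was -1.05. Among members given with all their statistics, others that changed sign were Ube2a (to -0.12) on quantile normalization, and Ube2t, to 0.027 without control 1 (-0.48 without control 2) and 0.21 with both changes. Median centring, a robust prior and the mean of a symbol's probe sets left counts within 1.5 times; the cause of the changes was not tested.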
